A study of Mus musculus with 15 samples.

Results

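The 31 genes described here encode the enzymes and regulators that build sterols and fatty acids. They were given as a list of gene symbols, with no threshold on a measured value, but were chosen with earlier results of these data known. Each symbol matched 1 identifier of the GENCODE M21 annotation. They stood among 55536 annotated genes with deposited counts, and all 31 passed the filter on low counts. The cholesterol branch held 22 genes, of which 7 encode enzymes of the mevalonate pathway, 11 encode enzymes from squalene to cholesterol, and 4 belong to the SREBP pathway and sterol transport. The fatty acid branch held 9 genes, namely Srebf1, 3 enzymes that make palmitate (Acly, Acaca and Fasn), and 5 desaturases and elongases.

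The study examined CD8+ T cells of OT-I mice, which carry a transgenic T cell receptor for the SIINFEKL peptide of ovalbumin, after activation in vivo with or without costimulation. Naive OT-I cells from Rag1- or Rag2-deficient donors on the C57BL/6J background were transferred into wild-type C57BL/6J recipients, so every library came from donor cells of the same receptor in a host that kept its own lymphocytes. Recipients in the Ag group (n = 5 libraries) were given peptide and rat IgG, and recipients in the Ag+Costim group (n = 5) were given peptide with agonist antibodies to OX40 (CD134) and 41BB (CD137). Spleen and lymph node cells were collected at day 4 per the labels (slightly earlier per the study's methods), sorted for CD8, Vα2, Vβ5 and the donor CD45 allele, and sequenced deeply as poly(A) RNA. Mice of both sexes were used, the labels give no age per library and do not say whether a library is 1 recipient or a pool, and the p-values below measure the spread between these libraries. Naive OT-I cells, the third group of the labels, were not analysed here.

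Cholesterol and fatty acids both start from cytosolic acetyl-CoA, which ATP citrate lyase makes from citrate. Sterol-sensing proteins in the endoplasmic reticulum control the supply: SCAP carries the SREBP transcription factors to the Golgi when sterols are low, INSIG proteins hold SCAP back when sterols are plentiful, and the released SREBP fragments switch on genes of both branches, with SREBP-2 (Srebf2) favouring sterol genes and SREBP-1 (Srebf1) favouring fatty acid genes. T cells that divide need both products for new membranes, and the SREBP pathway is known to be used when CD8+ T cells expand.

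Library totals ran from 59598556 to 639070261 estimated counts, and the shallowest was Ag 3. Genes with a count numbered 48058, 21779, 51778, 40441 and 20714 in Ag 1 to 5, and 28727 to 30340 in Ag+Costim. The most were thus found in Ag 3, the shallowest library. Pairs of Ag libraries ranged more widely than pairs of Ag+Costim libraries, with correlations of log2 CPM across genes of 0.773 to 0.968 over 10 pairs against 0.956 to 0.961. Markers of CD8+ T cells were high in every library, with a summed level over 8 genes of 5597 to 12085 CPM in Ag and 7410 to 9225 in Ag+Costim. CPM here is the count scaled to library size with TMM factors. All 22 cell cycle genes examined had their 2 lowest values in Ag 1 and Ag 4, where their mean level was 5.98 and 6.08 log2 CPM, against 8.30 to 9.07 in the other Ag libraries and 8.99 to 9.29 in Ag+Costim. Markers of B cells summed to 1223, 716, 1782, 1503 and 929 CPM in Ag 1 to 5 and to 640 to 982 CPM in Ag+Costim, and the 7 erythroid markers reached 1106 CPM in Ag 3. Markers of hepatocytes and adipocytes, cells known for strong lipid synthesis, summed to at most 8.16 CPM, which was in Ag 3. The part that other cells, depth, the number of genes with a count or cell cycle genes have in the differences below was not tested. In bulk RNA fewer cells with a transcript and less transcript per cell cannot be told apart.

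Most genes of both branches had higher fitted levels after costimulation, though none passed the adjusted edgeR test. Among those whose groups did not overlap, Fasn, the enzyme that assembles palmitate, was at 2.35-fold, Hmgcs1, which makes HMG-CoA, at 1.69-fold, and Insig1 and Acly at 1.65-fold and 1.63-fold. The fitted log2 fold change, Ag+Costim minus Ag, was above 0 for 30 of the 31 genes, with a median of 0.56 in the cholesterol branch and 0.56 in the fatty acid branch. The same median was -0.32 over all 24262 genes tested. It was 0.24 over the 8626 of them that averaged at least 10 CPM, a level that 28 of the 31 reached. A fold change above 0 was found for 9145 of the 24262 and for 6520 of the 8626, and 24 of the 31 lay above the 0.24. Scaled by total counts, where the median at 10 CPM or more was 0.00, 26 of the 31 were above 0. Of the 31, 7 (22.6%) had all 5 Ag+Costim libraries above all 5 Ag libraries, namely Hmgcs1, Dhcr7, Scap, Insig1, Srebf1, Acly and Fasn. Among all genes tested 4.48% were higher without overlap and 1.13% lower, and among those at 10 CPM or more the shares were 11.3% and 0.22%. No member was lower without overlap.

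None of the 31 genes passed edgeR's quasi-likelihood test at a Benjamini-Hochberg adjusted p under 0.05, where the call share over all genes was also 0%, and the lowest adjusted p among them was 0.117, for Fasn. At an unadjusted p under 0.05, 13 of the 31 were higher and 0 were lower, where 7.89% of all genes tested were higher and 10.7% lower, and 20.2% and 2.82% of those at 10 CPM or more. DESeq2 called 8 of the 31 higher and 0 lower, where it called 2.58% of 36101 genes higher and 19.8% lower, and 9.83% and 3.1% of those at 10 CPM or more. Limma voom, run with 1 quality weight for each library, called 27 higher and 1 lower, where it called 25.8% of genes higher and 26.4% lower, and 57.7% and 12.5% of those at 10 CPM or more. The limma fit gave Ag 2 and Ag 5 the lowest weights, 0.0986 and 0.0656, against 0.508 to 2 in the other Ag libraries and 1.7 to 3.35 in Ag+Costim. Without Ag 2 and Ag 5, a choice made after the data were seen, edgeR called 27 of the 31 higher and 1 lower, where it called 17.9% of 33480 genes higher and 30.8% lower, and 61.8% and 4.35% of those at 10 CPM or more.

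**Figure D1:**
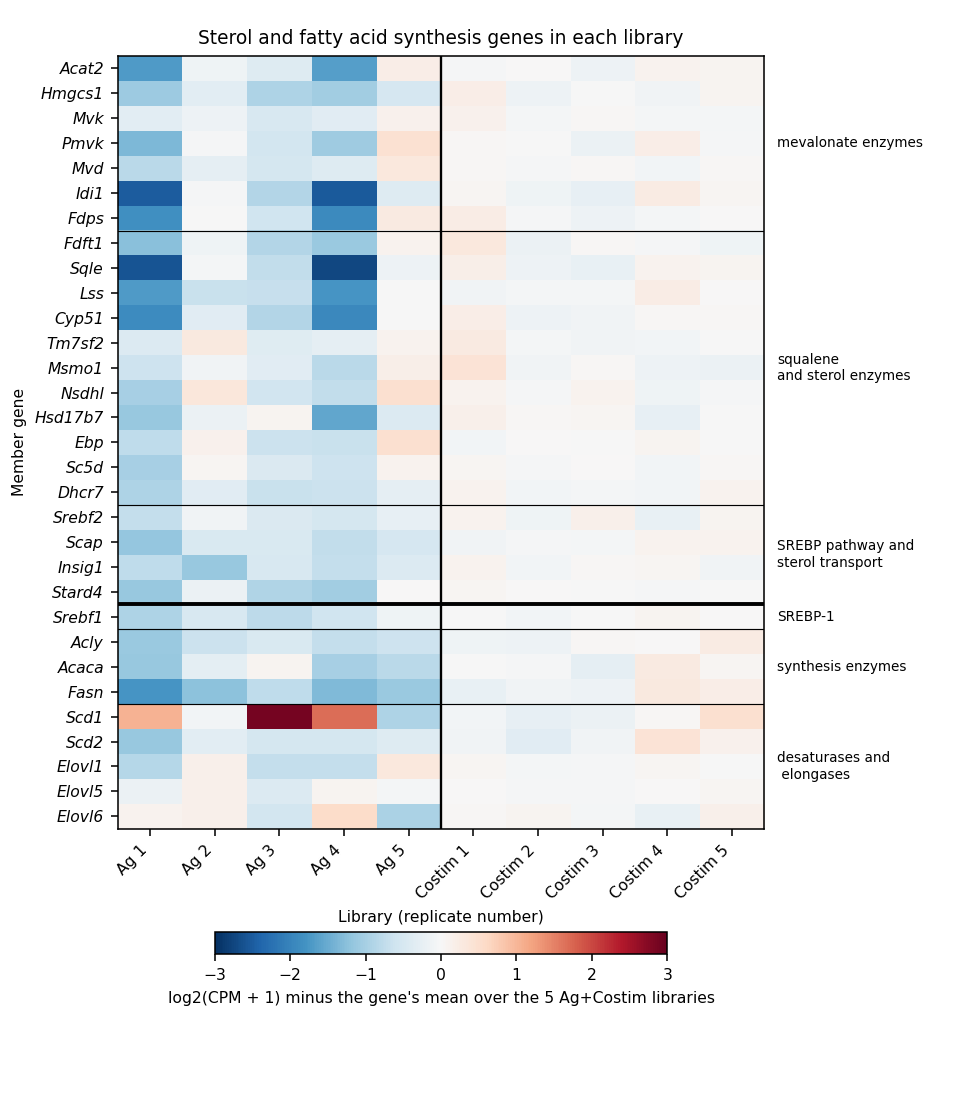
Colour shows log2(CPM + 1) of each member gene (rows, by role) in each library (columns) minus the gene's mean over the 5 Ag+Costim libraries, with the heavy line between the cholesterol branch (above) and the fatty acid branch (below). Ag 1 and Ag 4 are lowest for most sterol enzymes, Fasn, Acly, Scap and Insig1 are lower in all 5 Ag libraries, and Scd1 runs the other way.

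The regulators of the pathway are described first. Insig1 (chr5:28071363-28078662, + strand, mm10) encodes the sterol-bound anchor that retains SCAP in the endoplasmic reticulum, and it is itself a known SREBP target. Its level was 12.4, 9.4, 15.5, 13 and 16.1 CPM across Ag 1 to 5 and 23.6, 20.5, 22.5, 22.7 and 20.4 CPM across Ag+Costim 1 to 5. The groups did not overlap, the spread within each was small, and the lowest Ag library was Ag 2. The log2 fold change was 0.72 ± 0.16 (SE, n = 5 and 5), with an adjusted p of 0.147 in edgeR and 0.0143 in DESeq2.

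Scap (chr9:110333288-110384950, + strand), the escort of the SREBP precursors, measured 56.2, 91.1, 91.5, 75.4 and 88.2 CPM across Ag 1 to 5 and 117, 123, 121, 137 and 135 CPM across Ag+Costim 1 to 5. All 5 Ag values lay under the lowest Ag+Costim value, and Ag 1 was the lowest of all. On the log2 scale the fold change was 0.65 ± 0.15 (SE), with an adjusted p of 0.154 in edgeR and 0.00308 in DESeq2.

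Srebf2 (chr15:82147181-82205379, + strand), which encodes SREBP-2, measured 119, 181, 145, 134 and 165 CPM across Ag 1 to 5 and 209, 179, 217, 168 and 207 CPM across Ag+Costim 1 to 5. The groups overlapped, since Ag 2 lay above Ag+Costim 2 and Ag+Costim 4. This gave a log2 fold change of 0.40 ± 0.15 (SE), the smallest of the 4 genes of this group, with an adjusted p of 0.254 in edgeR and 0.0465 in DESeq2. Stard4, a carrier of cholesterol between membranes, averaged 26.3 ± 10.4 CPM over Ag (SD, n = 5) and 39.5 ± 0.929 CPM over Ag+Costim, and its groups overlapped only through Ag 5 at 39.8 CPM.

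Srebf1 (chr11:60199089-60222581, - strand), which encodes SREBP-1, measured 81.3, 110, 88.9, 101 and 141 CPM across Ag 1 to 5 and 154, 146, 154, 162 and 155 CPM across Ag+Costim 1 to 5. Ag 5 came close to the lowest Ag+Costim library, and the other 4 Ag libraries lay well below. The log2 fold change was 0.56 ± 0.16 (SE), with an adjusted p of 0.201 in edgeR and 0.0089 in DESeq2. Its exons overlap those of Rai1 on the opposite strand, and the counting is not stated to use strand. Reads of 1 of these genes could therefore be counted for the other.

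Per base of transcript, Srebf2 stood above Srebf1 in Ag, with 58.5 ± 5.68 against 42.2 ± 4.96 TPM (a per-length level computed from transcript counts and annotated lengths, SD, n = 5). In Ag+Costim the values were 69.2 ± 7.24 and 56.9 ± 1.49 TPM. Insig1 was the least abundant of the regulators, at 8.89 ± 2.58 TPM in Ag and 12.7 ± 0.784 TPM in Ag+Costim.

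**Figure D2:**
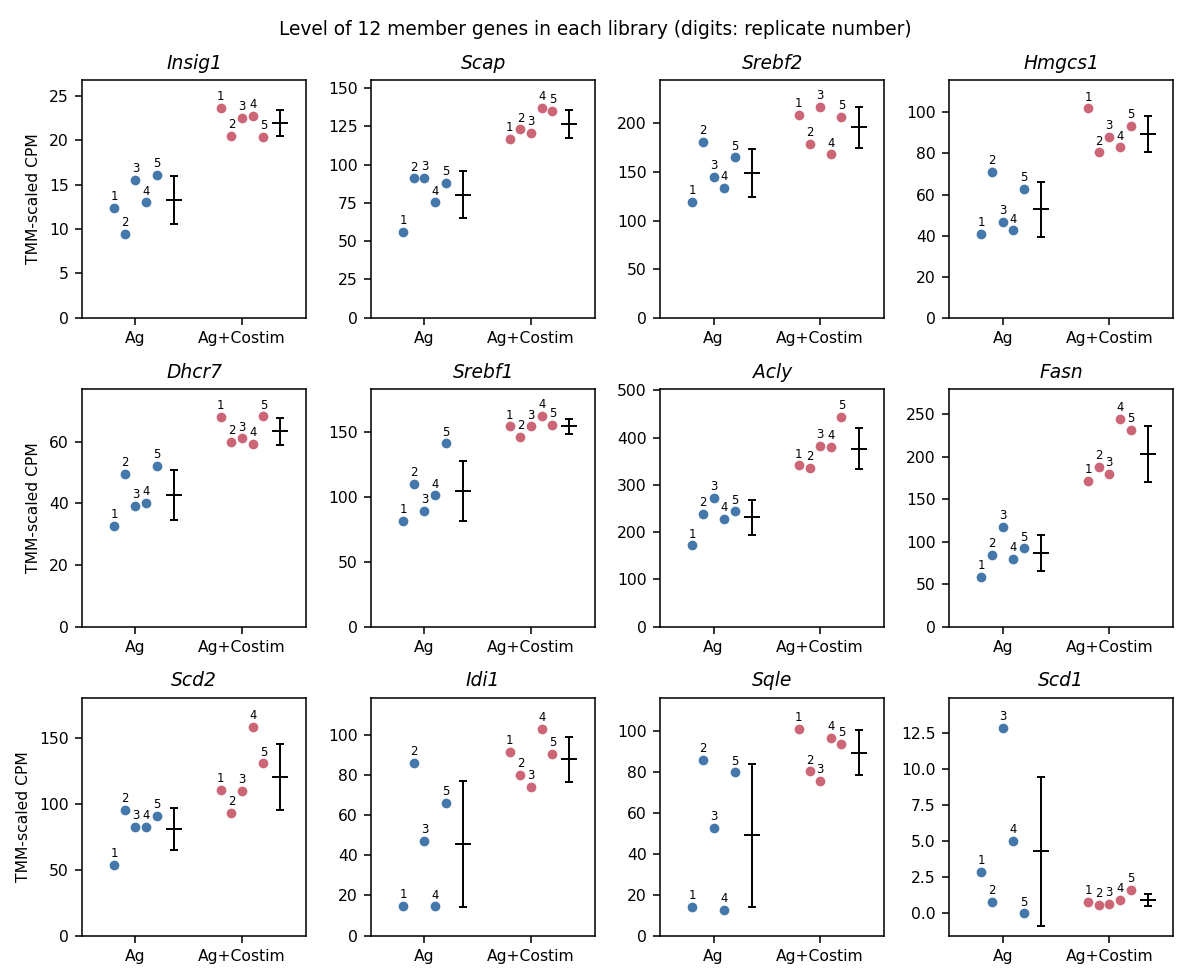
Each point is 1 library (digit: replicate number) on a linear axis of TMM-scaled CPM, with the mean and SD of the 5 libraries beside each group. The 7 panels from Insig1 to Fasn other than Srebf2 show groups that do not overlap, while in Idi1 and Sqle the libraries Ag 1 and Ag 4 lie far below the other Ag libraries.

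In the mevalonate pathway, Hmgcs1 (chr13:119690379-119708260, + strand), the HMG-CoA synthase of the cytosol, measured 41, 71, 46.6, 42.5 and 62.9 CPM across Ag 1 to 5 and 102, 80.5, 87.9, 83 and 93.6 CPM across Ag+Costim 1 to 5. No Ag library reached an Ag+Costim library. This gave a log2 fold change of 0.76 ± 0.18 (SE), with an adjusted p of 0.154 in edgeR and 8.9e-04 in DESeq2.

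The other 6 enzymes of that pathway overlapped between the groups, with log2 fold changes from 0.23 for Mvk to 0.94 for Idi1. Idi1, the isomerase that makes the dimethylallyl unit, is given in full because its libraries split, and was chosen after its values were seen. It measured 14.6, 85.8, 47, 14.5 and 66 CPM across Ag 1 to 5 and 91.4, 80, 74, 103 and 90.6 CPM across Ag+Costim 1 to 5. Ag 1 and Ag 4 were far below all other libraries, Ag 3 lay between, and Ag 2 lay within the Ag+Costim range. The edgeR log2 fold change of 0.94 ± 0.46 (SE) had an adjusted p of 0.281. Fdps, which makes farnesyl diphosphate, was likewise lowest in these libraries, from 25.3 CPM in Ag 4 and 26.6 CPM in Ag 1 to 119 CPM in Ag 5, against 87.9 to 115 CPM in Ag+Costim.

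From squalene onward, Dhcr7 (chr7:143823145-143848410, + strand), the enzyme of the last step of the pathway through 7-dehydrocholesterol, measured 32.6, 49.6, 39.3, 40.3 and 52.2 CPM across Ag 1 to 5 and 68.2, 60, 61.1, 59.4 and 68.3 CPM across Ag+Costim 1 to 5. The groups did not overlap. The fitted log2 change was 0.57 ± 0.15 (SE), with an adjusted p of 0.182 in edgeR and 0.00226 in DESeq2.

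Sqle, the squalene epoxidase and a controlled step of the pathway, was also chosen after its values were seen. It measured 13.9, 85.8, 52.7, 12.6 and 79.7 CPM across Ag 1 to 5 and 101, 80.2, 75.6, 96.4 and 93.6 CPM across Ag+Costim 1 to 5. Ag 1 and Ag 4 were far below the rest, Ag 3 lay between, and Ag 2 and Ag 5 were within the Ag+Costim range. Lss, which closes the sterol ring, and Cyp51, which removes a methyl group from lanosterol, had unadjusted edgeR p-values of 0.0228 and 0.0413, with log2 fold changes of 0.85 ± 0.32 and 0.83 ± 0.36 (SE). Their adjusted p-values were 0.251 and 0.267.

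The remaining 7 enzymes of this stage (Fdft1, Tm7sf2, Msmo1, Nsdhl, Hsd17b7, Ebp and Sc5d) overlapped between the groups, with log2 fold changes from 0.12 for Tm7sf2 to 0.59 for Hsd17b7 and unadjusted edgeR p-values of 0.0616 to 0.569. The direction was not the same under every scaling: with total counts Tm7sf2 was at -0.11 and Mvk at -0.02, and with upper quartile factors Tm7sf2 was at -0.09 and Nsdhl at -0.01. Exons of Fdft1, Cyp51 and Tm7sf2 overlap those of Ctsb, Akap9 and Vps51. The values of these 3 genes are uncertain for that reason.

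In the fatty acid branch, Fasn (chr11:120805846-120824547, - strand) measured 58.2, 84.9, 118, 80.1 and 92.2 CPM across Ag 1 to 5 and 172, 188, 180, 245 and 232 CPM across Ag+Costim 1 to 5. The lowest Ag+Costim library stood clear above the highest Ag library, Ag 3, and Ag 1 was the lowest of all. At 1.23 ± 0.20 (SE) its log2 fold change was the highest of the 31 genes, with an adjusted p of 0.117 in edgeR and 7.7e-06 in DESeq2. It ranged from 1.12 to 1.37 as each library was left out in turn.

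Acly (chr11:100476353-100528000, - strand), the citrate lyase that supplies cytosolic acetyl-CoA to both branches, measured 172, 239, 272, 228 and 244 CPM across Ag 1 to 5 and 341, 335, 382, 380 and 443 CPM across Ag+Costim 1 to 5. The groups did not overlap. The fitted log2 change was 0.70 ± 0.16 (SE), with an adjusted p of 0.147 in edgeR and 0.0018 in DESeq2. Acaca, the acetyl-CoA carboxylase that makes malonyl-CoA, averaged 13.4 ± 5.32 CPM over Ag (SD) and 20.4 ± 2.92 CPM over Ag+Costim, with Ag 3 at 21.4 CPM inside the Ag+Costim range and an adjusted edgeR p of 0.263.

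The 5 desaturases and elongases had log2 fold changes on both sides of 0, from -2.23 for Scd1 to 0.58 for Scd2, with a median of 0.07. Limma voom with quality weights called 2 of them higher and 1 lower, and edgeR called 0. Scd2, a stearoyl-CoA desaturase, measured 53.8, 95.4, 82.7, 82.7 and 90.9 CPM across Ag 1 to 5 and 111, 93.6, 110, 159 and 131 CPM across Ag+Costim 1 to 5. The groups touched only where Ag 2 exceeded Ag+Costim 2. Its log2 fold change was 0.58 ± 0.19 (SE), with an unadjusted p of 0.0127 and an adjusted p of 0.236 in edgeR and 0.055 in DESeq2.

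Scd1, the desaturase best known from liver and fat, was low and ran in the opposite direction, and was chosen after its values were seen. It measured 2.87, 0.788, 12.9, 5.04 and 0 CPM across Ag 1 to 5 and 0.777, 0.595, 0.665, 0.918 and 1.64 CPM across Ag+Costim 1 to 5. The log2 fold change of -2.23 ± 1.26 (SE) had an adjusted p of 0.314 in edgeR. The Ag values above the Ag+Costim range were those of Ag 1, Ag 3 and Ag 4. These libraries had the highest B cell marker sums and also the most genes with a count. Whether either bears on Scd1 was not tested. Elovl5 and Elovl6, which lengthen fatty acids, differed by 0.07 ± 0.14 and 0.06 ± 0.28 on the log2 scale (SE), and both turned negative under DESeq2's size factors, total counts and upper quartile factors. Elovl1, at 0.28 ± 0.24, shares exons with the cell cycle gene Cdc20 on the opposite strand, so its counts cannot be told apart from Cdc20 reads without strand.

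**Figure D3:**
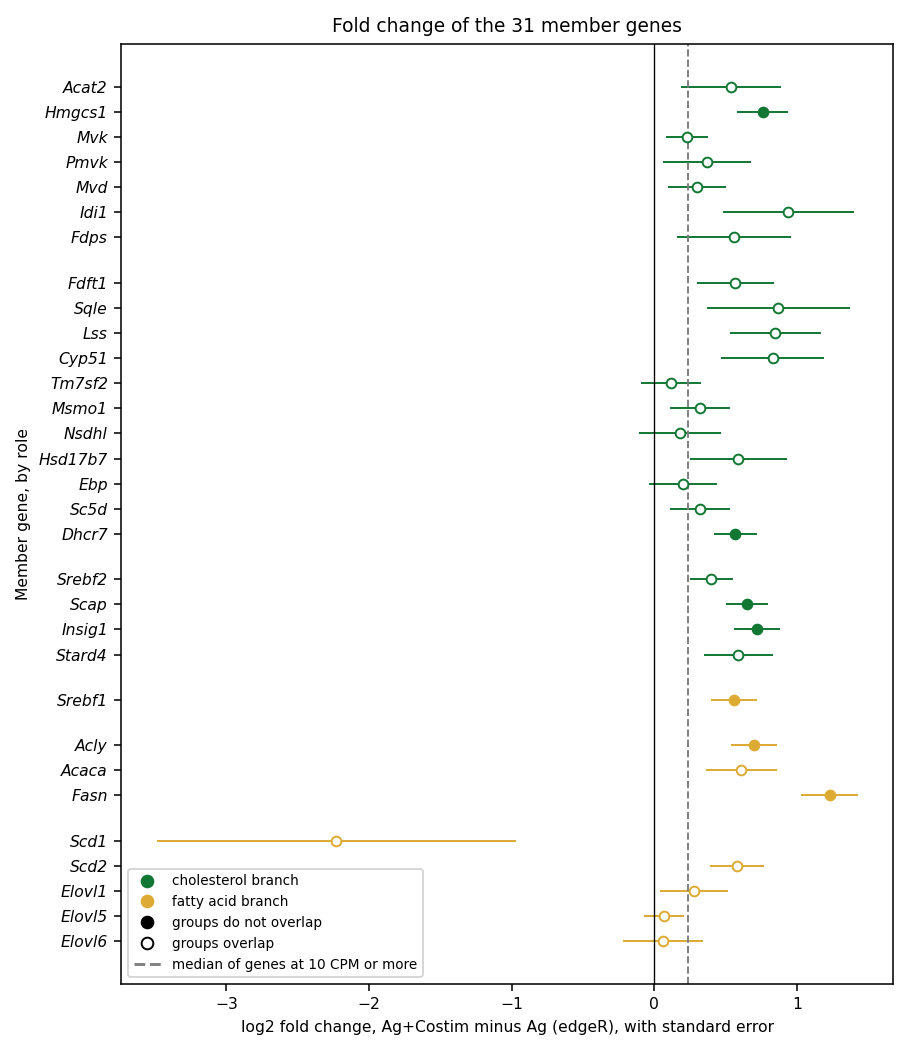
Points are edgeR log2 fold changes (Ag+Costim minus Ag) with standard errors for the 31 genes, coloured by branch, filled where the groups do not overlap, with a dashed line at 0.24, the median of genes at 10 CPM or more. Genes of both branches lie mostly right of the line, Fasn farthest at 1.23, and Scd1 is the only gene below 0, at -2.23.

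The branches had the same median, and the libraries that were lowest are described next. In 21 of the 31 genes the 2 lowest of the 10 libraries were Ag 1 and Ag 4, which held for 17 of 22 genes of the cholesterol branch and 4 of 9 of the fatty acid branch. The same held for 19.2% of all genes tested and for 39.6% of those at 10 CPM or more. The cell cycle genes had this order too, in 22 of 22.

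The mean level of the 7 mevalonate enzymes was 4.19, 5.47, 4.97, 4.29 and 5.68 log2 CPM in Ag 1 to 5 and 5.70, 5.55, 5.51, 5.64 and 5.63 in Ag+Costim 1 to 5. Ag 5 was thus at the Ag+Costim level and Ag 2 just under it. The 3 fatty acid synthesis enzymes measured 5.47, 6.11, 6.46, 5.80 and 5.98 log2 CPM in Ag and 6.72, 6.75, 6.70, 7.04 and 7.02 in Ag+Costim. Here no Ag library reached the Ag+Costim range. The 4 genes of the SREBP pathway and sterol transport, at 5.11, 5.59, 5.51, 5.31 and 5.79 log2 CPM in Ag and 6.02 to 6.12 in Ag+Costim, did not reach it either. Over all 9 genes, the fatty acid branch had 5.24, 5.54, 5.80, 5.64 and 4.59 log2 CPM in Ag and 5.70 to 6.04 in Ag+Costim. There Ag 3 lay inside the Ag+Costim range. The 5 desaturases and elongases had 4.88, 4.95, 5.27, 5.34 and 3.25 in Ag and 4.77 to 5.20 in Ag+Costim. For these, Ag 3 and Ag 4 lay above that range.

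With Ag 1 and Ag 4 left out, a choice made after the data were seen, the median log2 fold change was 0.23 in the cholesterol branch and 0.44 in the fatty acid branch, against 0.15 over genes at 10 CPM or more. The mevalonate enzymes then had a median of 0.13 and the 11 later enzymes 0.19, while the SREBP pathway and transport genes had 0.41 and Acly, Acaca and Fasn together 0.59. In this setting 7 of 31 genes were higher without overlap, against 6.92% of all genes and 17.5% of those at 10 CPM or more. An unadjusted edgeR p under 0.05 was found for 9 of the 31, all higher, against 7.74% of all genes and 20.5% of those at 10 CPM or more. Fasn was at 1.06, Insig1 at 0.69, Acly at 0.59, Hmgcs1 at 0.58 and Scap at 0.50, while Pmvk, which phosphorylates mevalonate phosphate, was at -0.01. Leaving out Ag 4 alone gave medians of 0.38 and 0.52, against 0.21 over genes at 10 CPM or more. With Ag 2 and Ag 5 left out instead, the medians were 0.94 and 0.85, against 0.59 over genes at 10 CPM or more. Of the 31 genes, 26 were then higher and 1 lower without overlap, where 18.7% of all genes were higher and 33.9% lower, and 61.7% and 2.19% of those at 10 CPM or more. The difference between the branches was not tested.

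**Figure D4:**
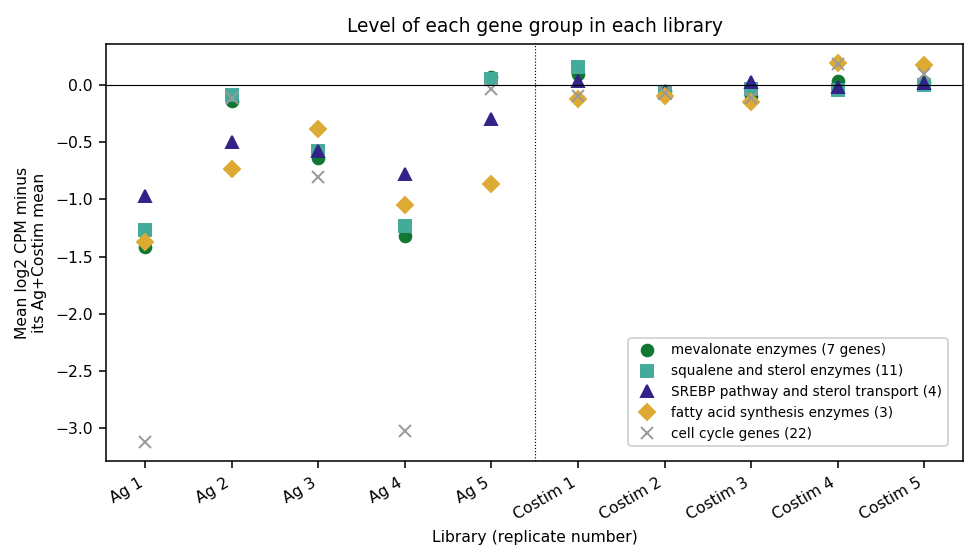
Points give the mean log2 CPM of each gene group in each library minus that group's mean over the 5 Ag+Costim libraries. In Ag 2 and Ag 5 the mevalonate and sterol enzymes lie near the Ag+Costim level, like the cell cycle genes, while the fatty acid synthesis enzymes and the SREBP pathway genes lie below it in all 5 Ag libraries. Srebf1 and the desaturases and elongases are not drawn.

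The single library with the largest effect on the overlap was Ag 5. Without it, 12 of the 31 genes had no overlap, all higher, as Mvk, Mvd, Lss, Cyp51 and Stard4 joined the 7, and the share over all genes was 7.01%, or 19.4% at 10 CPM or more. In Ag 5 these 5 genes measured 13, 24.4, 45.3, 98.7 and 39.8 CPM in that order, each inside or above the range of Ag+Costim.

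Ag libraries varied more than Ag+Costim libraries in both branches. The median SD, as a percentage of the mean, was 40.5% in Ag and 9.54% in Ag+Costim for the cholesterol branch and 24.9% and 11.5% for the fatty acid branch. Over genes at 10 CPM or more it was 32.2% and 8.54%.

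Per base of transcript, the most abundant members in Ag+Costim were Elovl1 at 147 ± 8.2 TPM (SD, n = 5), Acly at 132 ± 16.2, Fdps at 121 ± 13 and Ebp, the sterol isomerase, at 102 ± 2.95. Neighbours among these 4 differed by less than the larger of their SDs, apart from Fdps and Ebp. Fasn stood at 31.3 ± 4.86 TPM and Hmgcs1 at 42.2 ± 4.73. Acaca, at 3.69 ± 0.498 TPM, Hsd17b7, at 3.62 ± 0.351 TPM, and Scd1, at 0.307 ± 0.127 TPM, were the lowest.

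Start site sequences are shown for the 4 genes without overlap that had the lowest p-values, because members of both branches are known to be read by SREBPs together with NF-Y and Sp1. Each run holds the 250 bases before the RefSeq start on GRCm38.p6, 5′ to 3′ on the gene's own strand, with matches in capitals. The motifs searched on both strands were TCACNCCAC (a sterol regulatory element), CCAAT (the NF-Y box) and GGGCGG (the Sp1 box).
Hmgcs1 lies at chr13:119690101-119690350 (+ strand), Insig1 at chr5:28071162-28071411 (+), Fasn at chr11:120824548-120824797 (-) and Acly at chr11:100528001-100528250 (-).
Hmgcs1: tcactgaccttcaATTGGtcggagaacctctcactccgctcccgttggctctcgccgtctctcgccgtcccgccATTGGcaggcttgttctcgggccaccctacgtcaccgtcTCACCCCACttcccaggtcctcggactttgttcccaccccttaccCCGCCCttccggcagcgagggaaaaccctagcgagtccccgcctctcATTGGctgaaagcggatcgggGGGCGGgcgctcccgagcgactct
Insig1: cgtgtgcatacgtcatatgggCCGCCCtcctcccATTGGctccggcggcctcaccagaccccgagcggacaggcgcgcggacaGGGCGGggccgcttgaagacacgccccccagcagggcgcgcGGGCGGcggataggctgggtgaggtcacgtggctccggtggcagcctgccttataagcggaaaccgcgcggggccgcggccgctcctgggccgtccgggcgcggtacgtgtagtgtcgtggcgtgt
Fasn: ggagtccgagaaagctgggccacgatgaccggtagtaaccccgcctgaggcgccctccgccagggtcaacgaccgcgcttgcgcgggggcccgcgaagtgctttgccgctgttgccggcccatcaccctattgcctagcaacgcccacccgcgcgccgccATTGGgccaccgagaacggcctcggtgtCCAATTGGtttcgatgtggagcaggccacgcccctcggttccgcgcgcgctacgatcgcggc
Acly: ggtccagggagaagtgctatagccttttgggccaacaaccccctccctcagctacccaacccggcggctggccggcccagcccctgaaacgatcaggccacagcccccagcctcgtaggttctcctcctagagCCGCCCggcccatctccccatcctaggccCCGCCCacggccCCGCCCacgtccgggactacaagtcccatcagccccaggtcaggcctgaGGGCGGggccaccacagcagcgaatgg
Hmgcs1 held 1 sterol element, 3 CCAAT boxes and 2 GGGCGG boxes, Insig1 held 1 CCAAT and 3 GGGCGG boxes, Fasn held 3 CCAAT boxes of which 2 overlap each other, and Acly held 4 GGGCGG boxes.

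RefSeq windows were found for 25 of the 31 genes, 32 windows in all, and those of Stard4, Scd1, Fdft1, Scd2, Sqle and Fdps were not used here. The element TCACNCCAC was in 1 of the 32 windows, that of Hmgcs1 (3.12%), against 1.05% of all 32851 promoters of the same length. CCAAT was in 21 windows (65.6%) against 33.8%, and GGGCGG in 23 (71.9%) against 32.7%. These shares are over all promoters, and none was computed for promoters of genes at 10 CPM or more. Whether expressed genes in general share the excess was not tested. The Acaca window lies inside the gene, beyond the start of its main transcript, Acaca-202 (chr11:84173122). Windows of 1 gene can overlap, and a match is only a run of letters.

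Transcript choice within the genes was compared by the share of each transcript in the estimated counts of its gene. Of 28 members with more than 1 transcript after filtering, 0 were called by edgeR's transcript usage test at an adjusted p under 0.05 and a change of mean share over 10 percentage points, against 0.297% of 10441 genes tested. Of the 28, 1 had an unadjusted p under 0.05 in edgeR (Mvd, 0.0484, with an adjusted value of 0.77), against 670 of all genes. Limma's diffSplice also called 0 of the 28.

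The transcript with the largest change of mean share at 10 CPM or more was Hmgcs1-202, which shares its coding sequence with Hmgcs1-201. It adds a 59-base exon of the 5′ untranslated region (chr13:119694989-119695047, mm10) and is 178 bases longer at the 3′ end. Which of these differences the estimated shares rest on was not tested. The share of Hmgcs1-202 was 12, 15.2, 12.6, 50.1 and 9.34 percent in Ag 1 to 5 and 13.3, 53.8, 12.9, 52.3 and 59.9 percent in Ag+Costim 1 to 5. Ag 4 and Ag+Costim 2, 4 and 5 were near 50 percent or above, and the other 6 libraries stayed at or under 15.2 percent, so the groups overlapped. The mean share was 19.9 ± 17 percent in Ag and 38.4 ± 23.3 percent in Ag+Costim (SD, n = 5).

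**Figure D5:**
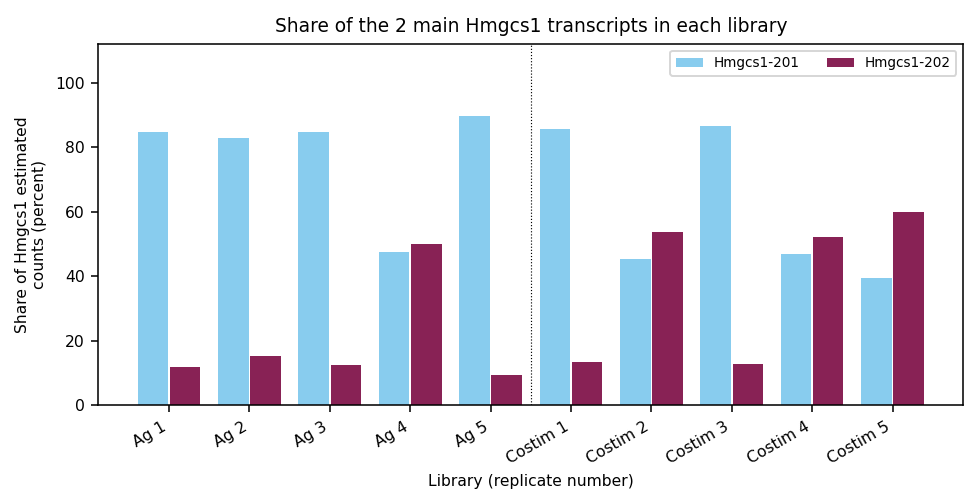
Bars give the percentage of Hmgcs1 estimated counts assigned to Hmgcs1-201 and Hmgcs1-202 in each library. Hmgcs1-202 is at 50.1 to 59.9 percent in 4 libraries, 1 of them Ag, and at 9.34 to 15.2 percent in the other 6.

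Dhcr7-202, a transcript with a later start than Dhcr7-201, made up 85.7 percent of Dhcr7 counts in Ag 2, against 0 to 12.1 percent in the other Ag libraries and 0 to 16.1 percent in Ag+Costim. It was named after its values were seen. The mean share, 19.9 ± 37.1 percent in Ag and 4.78 ± 6.64 percent in Ag+Costim (SD), rested on that library.

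The deposited splicing table, with 1 percent-spliced-in (PSI) value per group and thus no replicate check, held 408 events in the 31 genes, most of them core exons. None, 0 of 408, passed a probability over 0.9 together with a PSI difference over 0.05, against 1.05% of all 138940 events. The highest probability was 0.944, for the upstream part of the last exon of Fasn (chr11:120807105-120807991, mm10, - strand, coding end and start of the 3′ untranslated region), with PSI 0.896 in Ag and 0.924 in Ag+Costim. A tandem end of Sc5d (chr9:42254177-42254732, - strand, 3′ untranslated region) fell just short at a probability of 0.899, with PSI 0.502 in Ag and 0.394 in Ag+Costim. The alternative first exon of Dhcr7 (chr7:143829626-143829739, + strand) had PSI 0.509 in Ag and 0.047 in Ag+Costim at a probability of 0.69.

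Among other genes of the same pathways, none passed edgeR's adjusted test. For the counts that follow, 4.48% of all genes tested and 11.3% of those at 10 CPM or more were higher without overlap. At an unadjusted edgeR p under 0.05, 7.89% of all genes were higher and 10.7% lower. The shares at 10 CPM or more were 20.2% and 2.82%. DESeq2 called 2.58% of its genes higher, and 9.83% of those at 10 CPM or more. Of 7 further sterol synthesis genes tested, 2 were higher without overlap, and the same 2 had an unadjusted edgeR p under 0.05 and passed DESeq2. Of 8 genes of SREBP control and sterol uptake, 2 were higher and 1 lower at an unadjusted p under 0.05. Among them Mbtps2, the site-2 protease that frees SREBPs from the Golgi membrane, averaged 14 ± 2.86 CPM over the Ag libraries and 21.7 ± 2.57 CPM over the Ag+Costim libraries (SD, n = 5), without overlap, at a log2 fold change of 0.64 ± 0.17 (SE) and a DESeq2 adjusted p of 0.0357. Npc2, which moves cholesterol out of lysosomes, was at -0.45 ± 0.20.

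The genes of sterol efflux, LXR action and sterol esterification had a median of -0.34 over 8 genes, near the -0.32 of all genes tested, with 0 higher and 2 lower at an unadjusted p under 0.05. Over the 5 of them at 10 CPM or more the median was -0.02, and over all 8 it was 0.20 without Ag 1 and Ag 4. Abca1, the cholesterol exporter, measured 4.57, 0.728, 5.82, 7.16 and 0.0647 CPM across Ag 1 to 5 and 0.637, 0.309, 0.545, 0.28 and 0.839 CPM across Ag+Costim 1 to 5. Ag 1, Ag 3 and Ag 4 were high, and Ag 2 and Ag 5 were at or below the Ag+Costim range. Its log2 fold change was -2.81 ± 0.95 (SE), with an adjusted p of 0.236 in edgeR and 0.0134 in DESeq2. Mylip, which marks lipoprotein receptors for degradation, was at -1.10 ± 0.40, with adjusted p-values of 0.245 in edgeR and 0.032 in DESeq2.

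Of 24 further fatty acid synthesis genes tested, 1 had an unadjusted edgeR p under 0.05 (Oxsm, a mitochondrial synthase, at 0.36 ± 0.16) and 0 had no overlap, with a median of 0.05. Fatty acid uptake and oxidation had a median of 0.28 over 16 genes. Over the 12 of them at 10 CPM or more it was 0.29, near the 0.24 of all genes at that level. Of the 16, 3 were higher without overlap, where 4.48% of all genes tested and 11.3% of those at 10 CPM or more were. The 3 were Acads at 0.63 ± 0.13, Cpt2 at 0.45 ± 0.17 and Acadvl at 0.30 ± 0.12, all of mitochondrial oxidation. Hadhb, of the same process, was at 0.43 ± 0.18 with overlap, and Ppargc1a, which was at or below 0.155 CPM in every Ag+Costim library and at 7.76 CPM in Ag 3, was at -4.75 ± 1.70.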

How the data were processed

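The authors sequenced poly(A) RNA (SMART-Seq v4, Nextera XT) and, per the submitters' processing notes, used HISAT2 2.1.0, SAMtools 1.9, StringTie 2.1.0, R 4.0.5 and DESeq2 1.30.1 with mm10. They deposited estimated counts per gene and per transcript. The deposited splicing table holds PSI as a fraction and a probability score, pooled per group. The role of strand in counting is not given in the sources used here. The members and lists were chosen with earlier results of these data known.

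Identifiers of GENCODE M21 were kept (26345 other entries, at most 0.308% of a library's counts, were left out). Counts were used as deposited, filtered with filterByExpr, scaled by TMM and tested with edgeR 4.0.16 (R 4.3.3) in a quasi-likelihood fit of 5 against 5 libraries without covariates. DESeq2 1.42.0 and limma 3.58.1 were alternatives, as were other scalings, filters and left-out libraries. Scripts were tested on simulated data. The labels give no sequencing lane or batch for the libraries.

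Values in every library are given for the 4 members of each branch with the lowest edgeR p, those without overlap, and the regulators. Of the other pathway genes, those without overlap or with an unadjusted p under 0.05 are named, except a few that are counted but not reported by name here. Replicate numbers do not pair the libraries: deviations of same-numbered libraries correlated at -0.30 to 0.25. Counts limit precision by depth, which was lowest in Ag 3.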

Additional observations from a re-analysis of the deposited data

Results flagged for a closer look

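In 66 groups of 5 libraries (31 genes and the mean level of both branches, in each condition), 2 had a library whose distance to its neighbour took up more of the group's range than Dixon's critical value of 0.71 for 5 libraries, where chance gives about 1 in 20. Both were Ag+Costim 1. Msmo1, a sterol demethylating oxidase, was at 63.9 CPM there against 42.3 to 48.5 CPM in the other Ag+Costim libraries. Tm7sf2, a sterol reductase, was at 8.03 CPM there against 5.99 to 6.41 CPM.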

How the results depend on the processing

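All edgeR fits that left out 1 library called 0 genes and 0 members, as did the other scalings, no filter on low counts and a replicate block, for which 13 members had an unadjusted p under 0.05 with and without the block. DESeq2 called 8064 genes and 8 members, limma voom with quality weights 12670 genes and 28 members, and edgeR without Ag 2 and Ag 5 called 16322 genes and 28 members. The cause of these differences between tools was not tested. Members without overlap numbered 7 to 12 as 1 library was left out, 12 without Ag 5, 27 without Ag 2 and Ag 5 (26 higher, 1 lower, where 18.7% of all genes were higher and 33.9% lower), and 5 to 7 under other scalings, where 1.48% to 2.88% of all genes were higher (1.48% with upper quartile factors, which gave the 5). Branch medians moved by less than the SD of the branch level over the Ag libraries, 0.57 for cholesterol and 0.48 for fatty acid, which is a wide limit. That SD describes the spread between libraries and does not measure the uncertainty of a median. For the fatty acid branch it includes Ag 5, at 4.59 log2 CPM against 5.24 to 5.80 in the other Ag libraries. The cholesterol median ran from 0.23 without Ag 1 and Ag 4 to 0.96 with limma voom. The fatty acid median ran from 0.32 with total counts to 0.85 without Ag 2 and Ag 5. The shift of genes at 10 CPM or more was 0.24 after TMM, 0.12 by DESeq2's factors, 0.00 by total counts and 0.02 by upper quartiles, and the members' median lay 0.32 to 0.33 above it in all 4. That excess was 0.18 without Ag 4, and 0.17 for the cholesterol branch, which stood at 0.33 with all libraries. Without Ag 1 and Ag 4 it was 0.13, and 0.08 for the cholesterol branch. Of 589 values of single members, 20 changed sign, in 7 genes: with total counts Mvk (-0.02), Tm7sf2 (-0.11), Elovl5 (-0.21) and Elovl6 (-0.28); with upper quartile factors Tm7sf2 (-0.09), Nsdhl (-0.01), Elovl5 (-0.17) and Elovl6 (-0.20); with DESeq2 size factors Elovl5 (-0.07) and Elovl6 (-0.09); with DESeq2 Elovl5 (-0.06) and Elovl6 (-0.08); with limma voom Elovl6 (-0.25); without Ag 1 and Ag 4 Pmvk (-0.01), Tm7sf2 (-0.03), Nsdhl (-0.15) and Ebp (-0.05); without Ag 3 Elovl5 (-0.01) and Elovl6 (-0.05); and without Ag 5 Elovl6 (-0.10). As 1 library was left out, Elovl5 reached at most 0.15 and Elovl6 at most 0.28. Transcript usage called 0 members in all alternatives run, the replicate block included, and a probability over 0.95 left 0 events.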
